A study of Mus musculus with 9 samples.

Results

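The genes of glycolysis and gluconeogenesis were examined in sorted cells of mouse bile duct organoids, with their transporters, regulatory kinases and glycogen enzymes. They were taken as the genes whose symbol in the count tables equals one of 37 names, and 35 of these names matched 36 of the 32137 genes counted, because Aldoa stands at 2 Ensembl identifiers. Of these 36 genes, 34 passed the filter on low counts and were tested among 17011 genes. Fbp1 and G6pc did not pass it, and Pck1 and Gys2 were not analysed here.

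The organoids, self-renewing cultures of biliary epithelium, came from 1 male mouse of mixed genetic background with the genotype Axin2CreERT2+/-; R26-LSL-tdTom+/-. Cre follows the promoter of Axin2, a target gene of Wnt signalling, and once 4-hydroxytamoxifen is present it switches on tdTomato permanently, so red cells are those that had Axin2 expression in that window. All groups had 2 to 4 days of expansion and 11 days of differentiation, and were given 3 uM dexamethasone and 500 nM 4-hydroxytamoxifen for the last 24 h. The untreated group holds tdTomato-negative cells of organoids without R-spondin 1. Organoids with 100 ng/ml of R-spondin 1 (Rspo1), a secreted protein that strengthens Wnt signalling, gave the Rspo1/tdTom- group (cells without tdTomato) and the Rspo1/tdTom+ group (cells with it). Each group has 3 libraries, 1 each from passages 5, 6 and 10, which are replicates 1, 2 and 3. They are repeated cultures from 1 animal. With passage as a block in the fit, p-values rest on how far the group difference varies among these cultures alone. They do not cover the spread between cultures or between animals. Rspo1/tdTom+ and untreated cells differ in both treatment and sorting gate, whose effects cannot be told apart in that comparison.

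Glycolysis splits glucose into pyruvate, and the cell either turns pyruvate into lactate for export or passes it to the mitochondrion through pyruvate dehydrogenase, which pyruvate dehydrogenase kinases switch off. Hepatocytes run much of the path in reverse to release glucose, which needs the gluconeogenic enzymes encoded by Pck1, Fbp1 and G6pc. Most steps have several isozymes, and liver cells use their own forms (such as Pklr and Slc2a2) where many growing cells use Pkm and Slc2a1. Many of these genes are known targets of the hypoxia factor HIF-1 and of MYC.

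The libraries held 23423979 to 37351448 counts, with counts for 22021 to 24578 genes. One gene, CT010467.1, took 0.21% to 8.89% of a library, most in the passage 6 libraries of Rspo1/tdTom+ (8.89%) and Rspo1/tdTom- cells (7.20%) and in Rspo1/tdTom+ passage 10 (4.35%). Axin2, which checks the treatment labels, had 1.32, 1.74 and 5.96 CPM (counts per library scaled by TMM to a common size) in the untreated libraries of passages 5, 6 and 10, 44.4, 97.4 and 124 CPM in the Rspo1/tdTom- and 75.7, 88.7 and 155 CPM in the Rspo1/tdTom+ libraries. It did not separate the Rspo1 gates: the log2 fold change of Rspo1/tdTom+ against Rspo1/tdTom- cells was 0.31, edgeR adjusted p = 0.28, and at passage 6 the Rspo1/tdTom- library was the higher one. The 10 cholangiocyte markers summed to 8142 to 10388 CPM in untreated, 7840 to 10624 CPM in Rspo1/tdTom- and 6614 to 7150 CPM in Rspo1/tdTom+ libraries. They did not move as 1 group. Against untreated cells 3 were called higher and 2 lower in Rspo1/tdTom+ cells, where 13.2% of all genes were called. Mean CPM in untreated and Rspo1/tdTom+ cells were 3098 and 1486 for Krt19, but 999 and 1617 for Spp1. The 12 hepatocyte markers summed to 361 to 724 CPM in untreated, 412 to 725 CPM in Rspo1/tdTom- and 328 to 490.2 CPM in Rspo1/tdTom+ libraries. Most of these sums came from Ttr (149 to 534 CPM over all libraries) and Hnf4a (123 to 281 CPM). Alb had 3.91 to 15.3 CPM, and no other marker of this list exceeded 4.63 CPM. Of 8 fibroblast markers 6 were in the tables and summed to at most 0.95 CPM, and 5 of the 6 endothelial markers, 1 of them at 0 in each library, summed to at most 0.85 CPM. Leukocyte markers, 5 of 6 of which were in the tables, summed to 8.43 to 22.2 CPM in untreated, 7.58 to 23.3 CPM in Rspo1/tdTom- and 5.51 to 11.6 CPM in Rspo1/tdTom+ libraries. Cd68, a macrophage lysosome gene and the 1 leukocyte marker tested, had 22.2, 9.30 and 8.20 CPM, 23.0, 7.61 and 7.54 CPM and 11.4, 6.31 and 5.34 CPM in these groups, and was lower in Rspo1/tdTom+ than in untreated (log2 fold change -0.71, edgeR adjusted p = 0.0153) and Rspo1/tdTom- cells (-0.61, edgeR adjusted p = 0.0148; with an offset for GC content and length -0.21, edgeR adjusted p = 0.316). Cd68 was chosen after its values were seen, and its calls remained in 3 and 4 of 6 fits that each left out 1 library. Ptprc, the pan-leukocyte marker CD45, had 0 to 5 counts per library. The 10 proliferation markers summed to 121 to 203 CPM in untreated, 320 to 388 CPM in Rspo1/tdTom- and 695 to 880 CPM in Rspo1/tdTom+ libraries. Between the Rspo1 gates 7 were called higher in Rspo1/tdTom+ cells and 3 were not called. Of all genes 38.9% were called there. Mean CPM in untreated, Rspo1/tdTom- and Rspo1/tdTom+ cells were 18.8, 24.7 and 219.5 for Mki67, but 36.7, 88.0 and 95.1 for Mcm2. The part of the proliferation, cholangiocyte and leukocyte markers in the results was not tested, and in bulk RNA fewer cells of a type and less RNA per cell cannot be told apart.

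Level per transcript length was read from the FPKM values that the authors deposited. Aldoa, the aldolase of most tissues, was the member with the highest mean, with 1023 ± 164 FPKM (SD, n = 3) in untreated, 1413 ± 211 FPKM (SD, n = 3) in Rspo1/tdTom- and 637 ± 93.5 FPKM (SD, n = 3) in Rspo1/tdTom+ cells. Pkm, pyruvate kinase M, spanned 519.7 to 1422 FPKM over the 9 libraries, and Ldha, the lactate dehydrogenase subunit found in glycolytic tissues, 429.7 to 1307 FPKM. The liver and red cell pyruvate kinase gene Pklr spanned 16.6 to 28.1 FPKM and the heart-type lactate dehydrogenase gene Ldhb 1.65 to 6.75 FPKM. Of the summed FPKM of Pkm and Pklr, Pkm made up 97.0% ± 0.895 (SD, n = 3) in untreated, 98.0% ± 0.427 (SD, n = 3) in Rspo1/tdTom- and 96.9% ± 0.429 (SD, n = 3) in Rspo1/tdTom+ cells.

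Where a step has several isozymes, 1 of them took most of the FPKM at most steps. The shares depend on the length used. With counts divided by exon length in place of FPKM, 38 mean shares over genes and groups moved by more than 1 SD. Hk1 made up 79.9% ± 9.02 (SD, n = 3), 82.2% ± 9.83 (SD, n = 3) and 75.0% ± 9.57 (SD, n = 3) of the summed Hk1 and Hk2, in the order untreated, Rspo1/tdTom-, Rspo1/tdTom+. Pfkl, the liver-type phosphofructokinase, made up 79.5% ± 5.45 (SD, n = 3), 83.2% ± 4.78 (SD, n = 3) and 77.0% ± 3.30 (SD, n = 3) of the summed Pfkl, Pfkm and Pfkp. Of the summed glucose transporters Slc2a1 and Slc2a2, Slc2a2, the form of hepatocytes and beta cells, made up 0.326% ± 0.115 (SD, n = 3), 0.192% ± 0.0585 (SD, n = 3) and 0.466% ± 0.0864 (SD, n = 3). The pyruvate dehydrogenase kinases were shared between Pdk2, with 52.2% ± 8.68 (SD, n = 3) of the summed 4 genes in untreated cells, and Pdk1, with 41.8% ± 9.49 (SD, n = 3). Among the 4 genes that set the level of fructose 2,6-bisphosphate, the allosteric activator of phosphofructokinase, Pfkfb3 took 59.1% ± 6.92 (SD, n = 3) and Pfkfb2 27.8% ± 5.90 (SD, n = 3) in untreated cells. Fbp1 and G6pc, which encode the fructose bisphosphatase and glucose-6-phosphatase of gluconeogenic liver, had 0 to 3 and 0 to 7 counts per library, and the 7 counts of G6pc came from untreated passage 6. A count of 0 allows up to 3 counts, or 0.0803 to 0.128 CPM of the total in these libraries, and covers counting error only.

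**Figure D1:**
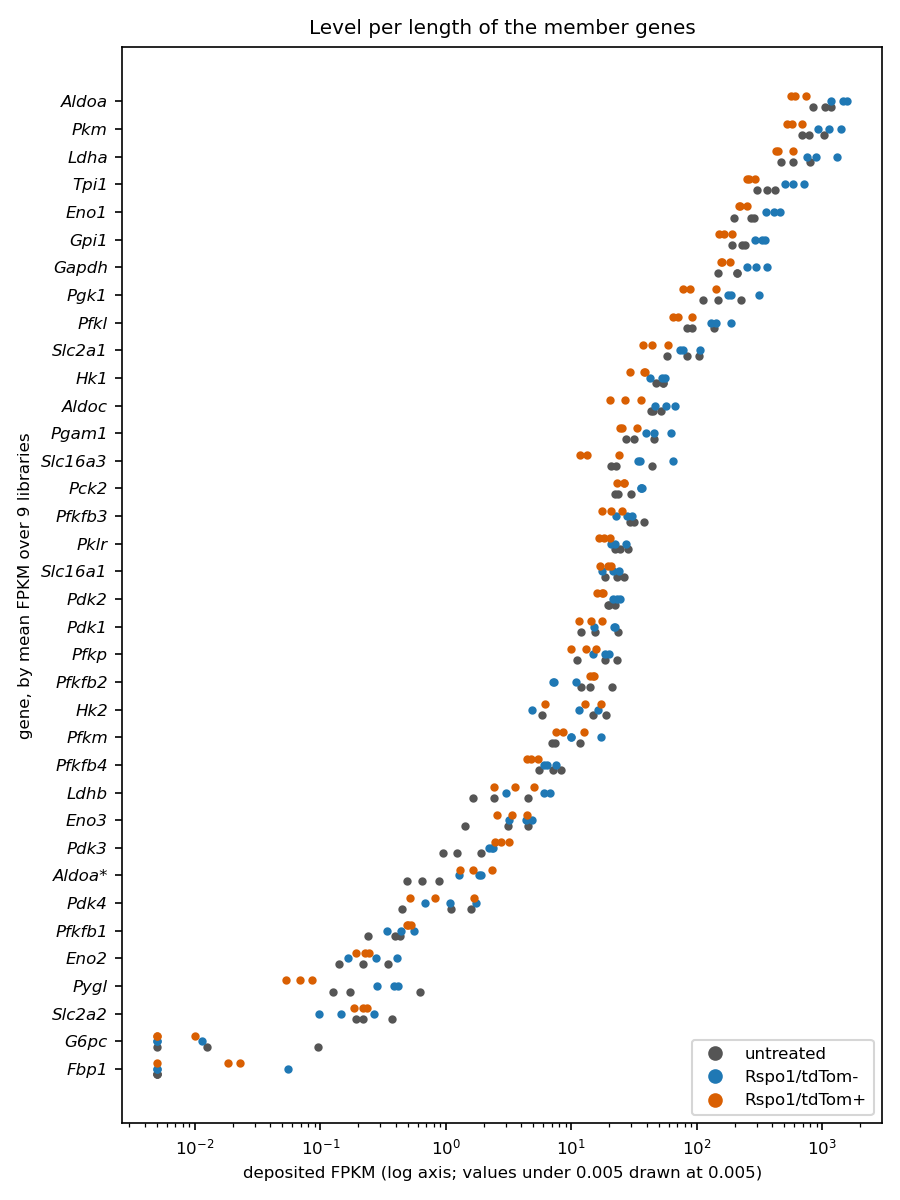
Deposited FPKM (log axis) of the 36 member genes, 1 point per library and gene, coloured by group. Aldoa, Pkm and Ldha lie at the top, Fbp1 and G6pc at the bottom, and Aldoa* is the second Aldoa identifier (ENSMUSG00000114515).

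Rspo1/tdTom+ cells were compared with Rspo1/tdTom- cells of the same treated organoids, from which the sorting gate separates them. Most steps of glycolysis were lower in the Rspo1/tdTom+ cells, from glucose uptake (Slc2a1) through at least 1 gene of each step from Gpi1 to Pkm to lactate production (Ldha) and export (Slc16a3). With passage as a block, edgeR called 22 of the 34 members lower and 1, Pfkfb2, higher at an adjusted p under 0.05. Over all genes tested 17.4% were called lower and 21.5% higher. The median log2 fold change was -0.47 over the members and 0.03 over all genes. In 20 members, 18 of them lower in Rspo1/tdTom+ cells, the 2 groups' libraries did not overlap, as was the case in 45.2% of all genes.

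Rspo1/tdTom- and untreated cells were both tdTomato-negative and differ in the treatment. Rspo1/tdTom- cells are also the part of the treated organoids that remains once the tdTomato-positive cells are set apart. The effects of treatment and of this selection cannot be told apart in this comparison. Here 14 members were called higher in Rspo1/tdTom- cells and 1, Pfkfb2, lower, against 15.5% and 20.0% of all genes called higher and lower. The higher members included the run of enzymes from Tpi1 through Gapdh, Pgk1 and Pgam1 to Eno1, with Ldha, Ldhb and the lactate exporter gene Slc16a3. With an offset for GC content and length in the fit, Tpi1, Gapdh and Slc16a3 of these kept their calls, while Pgk1, Pgam1, Eno1, Ldha and Ldhb did not. The median log2 fold change was 0.41 over the members and -0.0086 over all genes. Libraries of the 2 groups did not overlap in 9 members, 8 of them higher in Rspo1/tdTom- cells, and in 36.3% of all genes.

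Between Rspo1/tdTom+ and untreated cells 11 members were called lower and 2 higher, where 6.77% of all genes were lower and 6.44% higher. The lower ones were Slc2a1, Slc16a3, Hk1, Pfkl, Aldoa, Aldoc, Pgk1, Pklr, Pfkfb3, Pfkfb4 and Pygl. Pdk3 and the second Aldoa identifier were higher. The median log2 fold change was -0.30 over the members and -0.0017 over all genes, and 13 members had groups that did not overlap, 10 of them lower, against 23.2% of all genes. The 3 comparisons share their groups in pairs, so that a value in 1 of them is not independent of the others. Each member called in any of the 3 comparisons changed in the same direction in 3 of 3 passages there. The test has passage as a block and used the same values, so it favours such genes and this agreement adds no evidence.

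**Figure D2:**
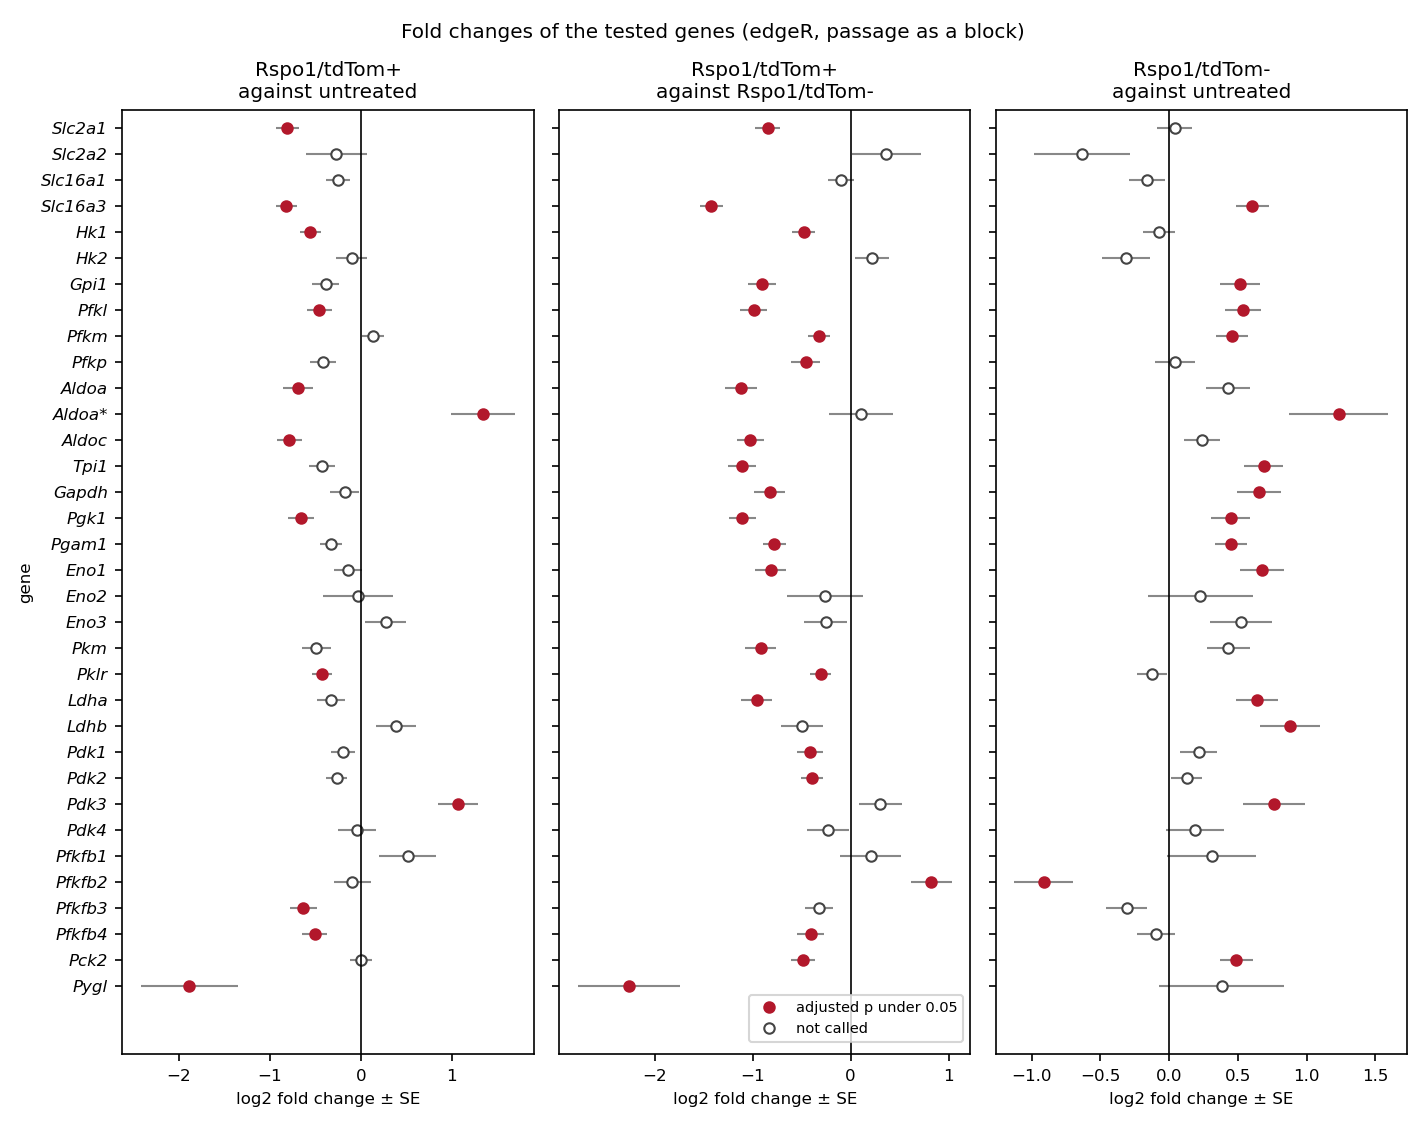
Log2 fold change ± SE of the 34 tested genes in each comparison, from the edgeR fit with passage as a block; filled points passed an adjusted p of 0.05. Against Rspo1/tdTom- cells 22 filled points lie to the left of 0 and 1, Pfkfb2, to the right; x axes differ in range, and Aldoa* is the second Aldoa identifier.

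Transcript composition moved with the comparisons that involve Rspo1/tdTom- cells. Across 17001 genes, which are not independent replicates, the Spearman correlation of log2 fold change with transcript GC content was -0.506 for Rspo1/tdTom+ against Rspo1/tdTom- cells, 0.499 for Rspo1/tdTom- against untreated cells and -0.0131 for Rspo1/tdTom+ against untreated cells. The median GC content was 52.7% over the members and 49.9% over all genes tested. With an offset for GC content and length added to the fit with the block, the members' calls against Rspo1/tdTom- cells were 20 lower and 0 higher, 18 of them among the 23 made without it, where 24.0% of all genes were called. For Rspo1/tdTom- against untreated cells 8 were called, 7 higher and 1 lower, and 5 of the 15 calls were kept. That is 8 of 34 members where 22.4% of all genes were called, a share near the background. For Rspo1/tdTom+ against untreated cells 14 were called, with all 13 calls kept, where 16.4% of all genes were called. The members' medians with the offset were -0.50, 0.33 and -0.29 in the same order.

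**Figure D3:**
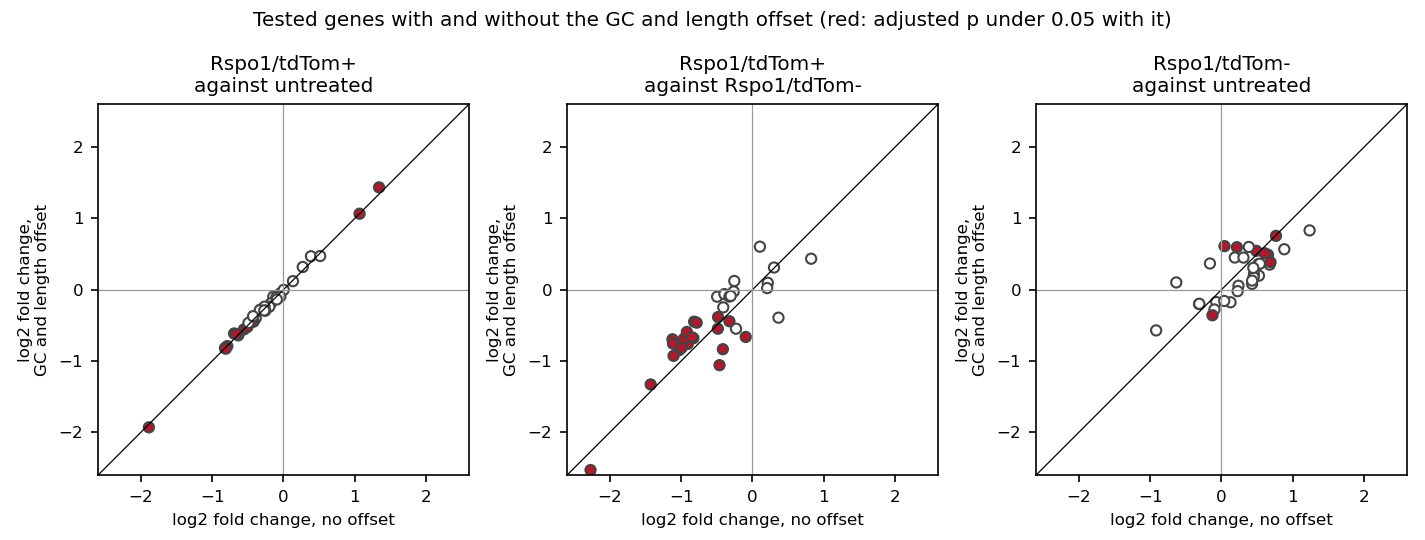
Log2 fold change of each tested gene without (x axis) and with (y axis) the GC and length offset, with passage as a block in both; red points had an adjusted p under 0.05 with the offset and the diagonal marks equal values. Points lie on the diagonal for Rspo1/tdTom+ against untreated cells and off it in both comparisons with Rspo1/tdTom- cells, where 20 and 8 points are red.

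Of the transporters, Slc2a1 encodes the basal glucose transporter GLUT1. Its levels at passages 5, 6 and 10 were 343, 280.0 and 193 CPM in untreated, 334, 252 and 239 CPM in Rspo1/tdTom- and 195, 144 and 124 CPM in Rspo1/tdTom+ libraries. The Rspo1/tdTom+ libraries lay below all Rspo1/tdTom- ones and overlapped the untreated ones only at the untreated passage 10 library. Slc2a1 was lower in Rspo1/tdTom+ than in untreated cells (log2 fold change -0.81, SE 0.13, edgeR adjusted p = 0.00163) and than in Rspo1/tdTom- cells (log2 fold change -0.85, SE 0.13, edgeR adjusted p = 0.000835). Rspo1/tdTom- and untreated cells did not differ detectably (log2 fold change 0.039, SE 0.13, edgeR adjusted p = 0.839).

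Slc16a3 encodes the lactate exporter MCT4. It had 192, 101 and 91.0 CPM in untreated, 272, 149 and 153 CPM in Rspo1/tdTom- and 106, 51.0 and 59.4 CPM in Rspo1/tdTom+ libraries of passages 5, 6 and 10. Within each passage the order was the same, Rspo1/tdTom- above untreated above Rspo1/tdTom+, and passage 5 was the highest in each group. It fell in Rspo1/tdTom+ against Rspo1/tdTom- cells (log2 fold change -1.43, SE 0.12, edgeR adjusted p = 9.19e-05) and against untreated cells (log2 fold change -0.82, SE 0.12, edgeR adjusted p = 0.000801), and rose in Rspo1/tdTom- against untreated cells (log2 fold change 0.61, SE 0.12, edgeR adjusted p = 0.00281). With the offset these were -1.33, edgeR adjusted p = 0.000278, then -0.82, edgeR adjusted p = 0.000749, then 0.51, edgeR adjusted p = 0.011. Its calls rested on the block for 2 comparisons: without it the adjusted p by edgeR was 0.262 against untreated cells and 0.268 for Rspo1/tdTom- against untreated cells. The related lactate and pyruvate carrier gene Slc16a1 was not called in any comparison, with 75.1 to 118 CPM over the 9 libraries, but with the offset its value in Rspo1/tdTom+ against Rspo1/tdTom- cells went from -0.094 to -0.66, edgeR adjusted p = 0.00643. Slc16a3 made up 54.8% ± 6.74 (SD, n = 3), 67.2% ± 5.52 (SD, n = 3) and 45.1% ± 7.47 (SD, n = 3) of the summed FPKM of both carriers in untreated, Rspo1/tdTom- and Rspo1/tdTom+ cells. Slc2a2 had 0.550 to 2.11 CPM and was not called.

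In upper glycolysis, hexokinase phosphorylates glucose on entry. Hk1 had 232, 205 and 236 CPM in untreated, 219, 182 and 242 CPM in Rspo1/tdTom- and 169, 125 and 167 CPM in Rspo1/tdTom+ libraries, which lay below all others. It was lower in Rspo1/tdTom+ than in untreated (log2 fold change -0.55, SE 0.12, edgeR adjusted p = 0.0093) and Rspo1/tdTom- cells (log2 fold change -0.48, SE 0.12, edgeR adjusted p = 0.00843). Hk2, the inducible hexokinase, was not called between groups, with log2 fold changes of -0.099, 0.21 and -0.31 in Rspo1/tdTom+ against untreated, Rspo1/tdTom+ against Rspo1/tdTom- and Rspo1/tdTom- against untreated cells.

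Gpi1 encodes glucose-6-phosphate isomerase and Pfkl catalyses the committed step with Pfkm and Pfkp. Pfkl had 523, 349 and 315 CPM in untreated, 679, 531 and 490.1 CPM in Rspo1/tdTom- and 345, 239.9 and 270.1 CPM in Rspo1/tdTom+ libraries. Rspo1/tdTom- libraries lay above all Rspo1/tdTom+ ones and overlapped the untreated ones, whose highest was passage 5. Pfkl was lower in Rspo1/tdTom+ than in Rspo1/tdTom- cells (log2 fold change -0.99, SE 0.13, edgeR adjusted p = 0.000477), higher in Rspo1/tdTom- than in untreated cells (log2 fold change 0.54, SE 0.13, edgeR adjusted p = 0.0101), and lower in Rspo1/tdTom+ than in untreated cells (log2 fold change -0.45, SE 0.13, edgeR adjusted p = 0.0453). With the offset the value of Pfkl in Rspo1/tdTom- against untreated cells was 0.36, edgeR adjusted p = 0.0645, which did not pass the test. Gpi1 fell by 0.91 on the log2 scale in Rspo1/tdTom+ against Rspo1/tdTom- cells (edgeR adjusted p = 0.0011) and rose by 0.52 in Rspo1/tdTom- against untreated cells (edgeR adjusted p = 0.0179; with the offset 0.36, edgeR adjusted p = 0.0781). Pfkm and Pfkp were lower in Rspo1/tdTom+ than in Rspo1/tdTom- cells (-0.32, edgeR adjusted p = 0.047 and -0.46, edgeR adjusted p = 0.0278). With the offset the difference of Pfkm was -0.096, edgeR adjusted p = 0.53, and that of Pfkp -1.06, edgeR adjusted p = 0.00074, a change of over 1.5 times for both. In Rspo1/tdTom- against untreated cells Pfkm was higher (0.46, edgeR adjusted p = 0.0117; with the offset 0.22, edgeR adjusted p = 0.167), and Pfkp passed the test with the offset only (0.043, edgeR adjusted p = 0.844; with the offset 0.61, edgeR adjusted p = 0.00604). The same held for Pfkp in Rspo1/tdTom+ against untreated cells (-0.42, edgeR adjusted p = 0.0876; with the offset -0.45, edgeR adjusted p = 0.0286). Of the exon bases of Gpi1, 11.5% lie opposite Gm26762, and 10.2% of those of Pfkm are shared with Gm26513.

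Aldolase and triose phosphate isomerase complete the upper part of the path. Aldoa (ENSMUSG00000030695, chr7:126795234-126800751, minus strand, GRCm38) had 1829, 1670.1 and 1329 CPM in untreated, 2382, 1829 and 2291 CPM in Rspo1/tdTom- and 1159.6, 874 and 967 CPM in Rspo1/tdTom+ libraries. All Rspo1/tdTom+ libraries lay below all others, and the lowest Rspo1/tdTom- library stood at about the level of the highest untreated one. Aldoa was lower in Rspo1/tdTom+ than in Rspo1/tdTom- (log2 fold change -1.12, SE 0.16, edgeR adjusted p = 0.000691) and untreated cells (log2 fold change -0.69, SE 0.16, edgeR adjusted p = 0.0165), and its rise in Rspo1/tdTom- over untreated cells did not pass the test (log2 fold change 0.43, SE 0.16, edgeR adjusted p = 0.0601). With the offset the first of these was -0.69, edgeR adjusted p = 0.00917. Aldoc, the brain aldolase, gave -1.03, edgeR adjusted p = 0.000439 against Rspo1/tdTom- and -0.79, edgeR adjusted p = 0.00272 against untreated cells.

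Tpi1, triose phosphate isomerase, had 679, 592 and 496 CPM in untreated, 1107, 808 and 937 CPM in Rspo1/tdTom- and 469.9, 406 and 435 CPM in Rspo1/tdTom+ libraries, and none of the 3 groups overlapped another. It was lower in Rspo1/tdTom+ than in Rspo1/tdTom- cells (log2 fold change -1.11, SE 0.14, edgeR adjusted p = 0.0004) and higher in Rspo1/tdTom- than in untreated cells (log2 fold change 0.69, SE 0.14, edgeR adjusted p = 0.00418; with the offset 0.38, edgeR adjusted p = 0.0444), with -0.43 (edgeR adjusted p = 0.0765) between Rspo1/tdTom+ and untreated cells. The second Aldoa identifier (ENSMUSG00000114515, chr7:126800790-126809108, minus strand, GRCm38) lies next to the first and had only 17, 12 and 25 counts in untreated, 37, 37 and 35 in Rspo1/tdTom- and 54, 55 and 38 in Rspo1/tdTom+ libraries. It was called higher in Rspo1/tdTom+ (1.34, edgeR adjusted p = 0.0293) and Rspo1/tdTom- cells (1.24, edgeR adjusted p = 0.0213; with the offset 0.83, edgeR adjusted p = 0.125) than in untreated cells, opposite in direction to the first in the former. How reads were divided between the 2 neighbouring identifiers is not given in the sources used here.

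**Figure D4:**
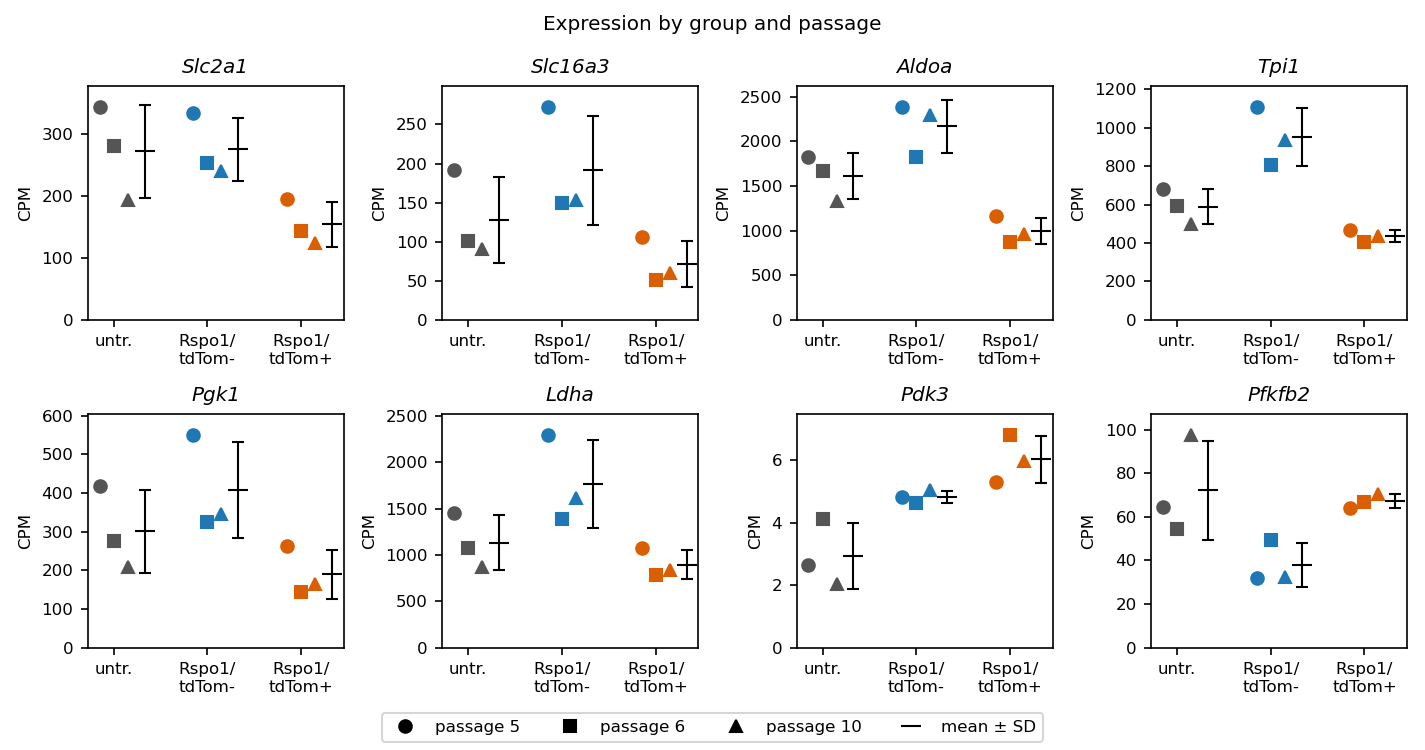
TMM-scaled CPM of 8 genes in each library (linear axes from 0), by group and passage, with the mean ± SD of 3 libraries beside the points. Tpi1 shows 3 groups with no overlap, Slc16a3 and Pgk1 are highest at passage 5 in each group, and Pdk3 and Pfkfb2 differ from the other 6 genes in the order of the groups.

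In lower glycolysis, Gapdh, Pgk1, Pgam1 and Eno1 encode the enzymes from glyceraldehyde 3-phosphate to phosphoenolpyruvate. Pgk1, phosphoglycerate kinase, had 419, 276 and 209 CPM in untreated, 549.8, 326 and 346 CPM in Rspo1/tdTom- and 262, 143 and 165 CPM in Rspo1/tdTom+ libraries. All Rspo1/tdTom- libraries exceeded all Rspo1/tdTom+ ones, and the untreated libraries overlapped both. Pgk1 was lower in Rspo1/tdTom+ than in Rspo1/tdTom- (log2 fold change -1.11, SE 0.14, edgeR adjusted p = 0.000394) and untreated cells (log2 fold change -0.66, SE 0.14, edgeR adjusted p = 0.0101), and higher in Rspo1/tdTom- than in untreated cells (log2 fold change 0.45, SE 0.14, edgeR adjusted p = 0.0297; with the offset 0.31, edgeR adjusted p = 0.102).

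Gapdh had 698, 696 and 494 CPM in untreated, 1165, 823 and 976 CPM in Rspo1/tdTom- and 614, 525 and 526 CPM in Rspo1/tdTom+ libraries. It was highest in the Rspo1/tdTom- group at each passage, with 0.65, edgeR adjusted p = 0.00949 for Rspo1/tdTom- against untreated, -0.83, edgeR adjusted p = 0.00273 for Rspo1/tdTom+ against Rspo1/tdTom- and -0.18, edgeR adjusted p = 0.555 for Rspo1/tdTom+ against untreated cells. Eno1, the main enolase, had 559, 592 and 409 CPM, 911, 724 and 845 CPM and 514, 445 and 449 CPM in the same groups. It was higher in Rspo1/tdTom- than in untreated cells (0.67, edgeR adjusted p = 0.00774) and lower in Rspo1/tdTom+ than in Rspo1/tdTom- cells (-0.82, edgeR adjusted p = 0.00277), and the former was 0.35, edgeR adjusted p = 0.114 with the offset. Pgam1, phosphoglycerate mutase, moved the same way (0.45, edgeR adjusted p = 0.0137 and -0.78, edgeR adjusted p = 0.000873), and the former was 0.17, edgeR adjusted p = 0.237 with the offset. Against Rspo1/tdTom- cells Eno1 and Pgam1 had -0.45, edgeR adjusted p = 0.0489 and -0.46, edgeR adjusted p = 0.00918 with the offset. Neither Eno1, Gapdh nor Pgam1 passed the test between Rspo1/tdTom+ and untreated cells. Gapdh, Eno1, Pgam1, Pgk1, Aldoa and Ldha have processed copies in the mouse genome, and how the counting treated reads shared with them is not given in the sources used here. The muscle and neuron enolases Eno3 and Eno2 were not called between groups, with 2.27 to 7.40 CPM and 0.401 to 1.14 CPM over the 9 libraries.

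Pyruvate kinase closes the path. Pkm had 2537, 1951 and 1709 CPM in untreated, 3347, 2259.8 and 2748 CPM in Rspo1/tdTom- and 1689.5, 1266 and 1440.2 CPM in Rspo1/tdTom+ libraries. It fell in Rspo1/tdTom+ against Rspo1/tdTom- cells (log2 fold change -0.92, SE 0.16, edgeR adjusted p = 0.00153; with the offset -0.59, edgeR adjusted p = 0.0175) and did not pass the test against untreated cells (-0.49, edgeR adjusted p = 0.0659) or between Rspo1/tdTom- and untreated cells (0.43, edgeR adjusted p = 0.053). Pklr had 65.5, 72.0 and 83.0 CPM in untreated, 63.2, 59.9 and 79.8 CPM in Rspo1/tdTom- and 53.8, 48.4 and 61.4 CPM in Rspo1/tdTom+ libraries, which lay below all untreated ones. It was lower in Rspo1/tdTom+ than in untreated cells (-0.43, edgeR adjusted p = 0.0238) and Rspo1/tdTom- cells (-0.30, edgeR adjusted p = 0.0459), the latter -0.088, edgeR adjusted p = 0.538 with the offset, and in Rspo1/tdTom- against untreated cells it went from -0.13, edgeR adjusted p = 0.395 to -0.36, edgeR adjusted p = 0.0237 with it. Of the exon bases of Pklr 22.0% lie opposite Hcn3, and 15.3% of those of Pkm are shared with Gm49759, whose reads cannot be told apart without the strand setting and the counting rule.

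Ldha had 1458, 1075 and 867 CPM in untreated, 2296, 1384 and 1619.9 CPM in Rspo1/tdTom- and 1074, 781 and 833 CPM in Rspo1/tdTom+ libraries, with passage 5 highest in each group. It was lower in Rspo1/tdTom+ than in Rspo1/tdTom- cells (log2 fold change -0.96, SE 0.16, edgeR adjusted p = 0.00113) and higher in Rspo1/tdTom- than in untreated cells (log2 fold change 0.64, SE 0.15, edgeR adjusted p = 0.00909; with the offset 0.41, edgeR adjusted p = 0.0511). Between Rspo1/tdTom+ and untreated cells the value was -0.32, edgeR adjusted p = 0.214. Ldhb, with 2.19 to 8.52 CPM in all libraries, was higher in Rspo1/tdTom- than in untreated cells (log2 fold change 0.88, SE 0.22, edgeR adjusted p = 0.00984; with the offset 0.57, edgeR adjusted p = 0.0575).

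The pyruvate dehydrogenase kinases, which restrain entry of pyruvate into the citric acid cycle, did not move as 1 group. Pdk3 had 2.65, 4.11 and 2.04 CPM in untreated, 4.82, 4.65 and 5.04 CPM in Rspo1/tdTom- and 5.29, 6.81 and 5.99 CPM in Rspo1/tdTom+ libraries. All Rspo1 libraries lay above all untreated ones, and the Rspo1/tdTom+ above the Rspo1/tdTom- ones. It rose in Rspo1/tdTom+ (log2 fold change 1.07, SE 0.22, edgeR adjusted p = 0.00903) and Rspo1/tdTom- cells (log2 fold change 0.76, SE 0.23, edgeR adjusted p = 0.0233) against untreated cells, and did not pass the test between the former (0.30, edgeR adjusted p = 0.298). With the offset Pdk1 was higher in Rspo1/tdTom- than in untreated cells (0.60, edgeR adjusted p = 0.00929; 0.22, edgeR adjusted p = 0.234 without it). Pdk1, a HIF-1 target, was lower in Rspo1/tdTom+ than in Rspo1/tdTom- cells (-0.41, edgeR adjusted p = 0.0315; with the offset -0.83, edgeR adjusted p = 0.00223), and so was Pdk2 (-0.39, edgeR adjusted p = 0.0199; with the offset -0.062, edgeR adjusted p = 0.712). The starvation-induced kinase gene Pdk4 had 1.58 to 5.91 CPM and was not called between groups.

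The bifunctional enzymes of the Pfkfb genes make and break fructose 2,6-bisphosphate. Pfkfb2, the heart form, was the 1 member called lower in Rspo1/tdTom- cells than in both other groups. It had 64.5, 54.3 and 97.6 CPM in untreated, 31.9, 49.5 and 32.5 CPM in Rspo1/tdTom- and 63.9, 67.0 and 70.3 CPM in Rspo1/tdTom+ libraries, and the Rspo1/tdTom- libraries lay below all others. Its differences were -0.91, edgeR adjusted p = 0.0073 in Rspo1/tdTom- against untreated and 0.82, edgeR adjusted p = 0.0106 in Rspo1/tdTom+ against Rspo1/tdTom- cells, and -0.57, edgeR adjusted p = 0.0579 and 0.43, edgeR adjusted p = 0.124 when the offset was added, where neither passed the test. Its transcripts have 45.6% GC, and 17.4% of its exon bases are shared with Gm29427.

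Pfkfb3, the inducible form that favours synthesis, had 183, 144 and 153 CPM in untreated, 129.9, 146 and 110.0 CPM in Rspo1/tdTom- and 123, 84.9 and 103 CPM in Rspo1/tdTom+ libraries. It was lower in Rspo1/tdTom+ than in untreated cells (log2 fold change -0.63, SE 0.15, edgeR adjusted p = 0.0154), and these groups did not overlap. Against Rspo1/tdTom- cells it passed the test with the offset only (-0.32, edgeR adjusted p = 0.106; with the offset -0.44, edgeR adjusted p = 0.0287). Pfkfb4 was lower in Rspo1/tdTom+ than in untreated cells (-0.51, edgeR adjusted p = 0.0343) and than in Rspo1/tdTom- cells (-0.41, edgeR adjusted p = 0.0375; with the offset -0.25, edgeR adjusted p = 0.152). Pfkfb1, the liver form, had 0.646 to 1.46 CPM and was not called.

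Of the 4 member genes of gluconeogenesis, Pck2, the mitochondrial phosphoenolpyruvate carboxykinase, was the 1 that was tested. It had 105, 141 and 112 CPM in untreated, 161, 167 and 170.2 CPM in Rspo1/tdTom- and 108, 122 and 126 CPM in Rspo1/tdTom+ libraries, so that the Rspo1/tdTom- libraries lay above all others. Pck2 was higher in Rspo1/tdTom- than in untreated cells (log2 fold change 0.49, SE 0.12, edgeR adjusted p = 0.0102) and lower in Rspo1/tdTom+ than in Rspo1/tdTom- cells (log2 fold change -0.48, SE 0.12, edgeR adjusted p = 0.0097), with 0.54, edgeR adjusted p = 0.0116 and -0.55, edgeR adjusted p = 0.0116 with the offset. Pygl, the liver glycogen phosphorylase, was a weak gene, with 18, 60 and 14 counts in untreated, 44, 32 and 21 in Rspo1/tdTom- and 11, 5 and 8 in Rspo1/tdTom+ libraries. In CPM these were 0.554, 2.01 and 0.403, then 1.17, 1.32 and 0.889, then 0.271, 0.169 and 0.224, and the Rspo1/tdTom+ libraries lay below all others. Pygl was lower in Rspo1/tdTom+ than in Rspo1/tdTom- (log2 fold change -2.27, SE 0.52, edgeR adjusted p = 0.00638) and untreated cells (log2 fold change -1.88, SE 0.53, edgeR adjusted p = 0.0382).

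**Figure D5:**
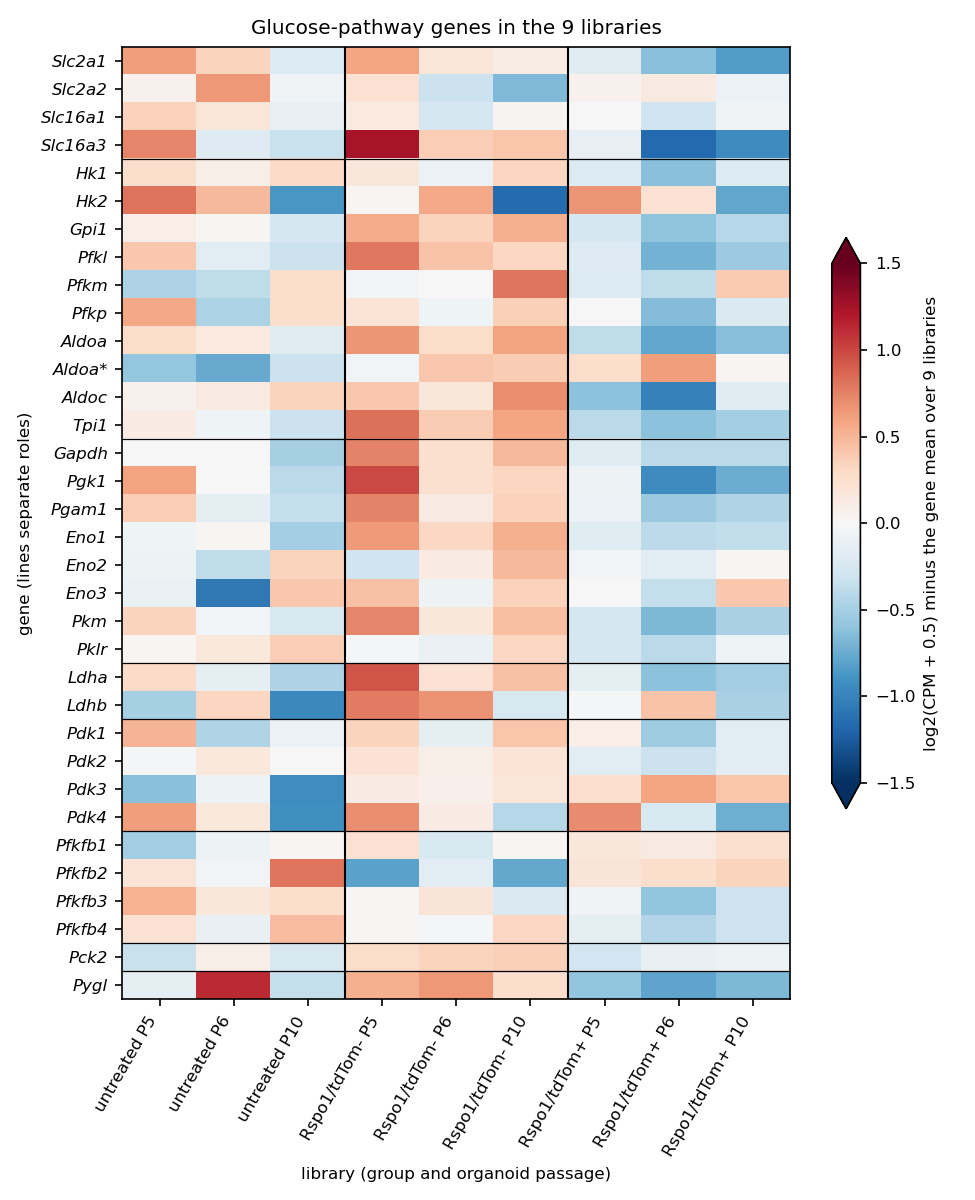
Log2(CPM + 0.5) of the 34 tested genes in each library minus the gene's mean over the 9 libraries (colour), with groups in columns, passages P5, P6 and P10 within them, and roles separated by lines. Rows from Gpi1 to Ldha are mostly red in the Rspo1/tdTom- and blue in the Rspo1/tdTom+ columns, while Hk2 follows passage; Aldoa* is the second Aldoa identifier.

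Several of these calls depended on single libraries. Between Rspo1/tdTom+ and Rspo1/tdTom- cells, the calls of Slc2a1, Slc16a3, Gpi1, Pfkl, Aldoa, Aldoc, Tpi1, Gapdh, Pgk1, Pgam1, Eno1, Pkm and Ldha remained in 6 of 6 fits that each left out 1 library and in the fit with block and offset. Hk1 lost its call without Rspo1/tdTom+ replicate 2 (edgeR adjusted p = 0.0545), Pygl without Rspo1/tdTom- replicate 1 (edgeR adjusted p = 0.05), and Pck2 and Pfkfb2 each in 3 of the fits (up to 0.0638 without Rspo1/tdTom- replicate 1 and 0.0752 without Rspo1/tdTom- replicate 3). Pdk1 kept its call in 2 of the 6 fits, Pdk2, Pfkp and Pklr in 1, and Pfkm and Pfkfb4 in 0. The number of members called was 15 without Rspo1/tdTom+ replicate 1 or 2, 17 without Rspo1/tdTom+ replicate 3, and 16, 22 and 16 without Rspo1/tdTom- replicates 1, 2 and 3. The share of all genes called was 21.7%, 26.8% and 25.3% without Rspo1/tdTom+ replicates 1, 2 and 3. It was 21.1%, 40.04% and 20.98% without Rspo1/tdTom- replicates 1, 2 and 3. The fit with 22 members called also had the highest share of all genes called.

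Between Rspo1/tdTom+ and untreated cells Slc2a1, Slc16a3 and Aldoc kept their calls in 6 of 6 such fits. Pdk3 lost it only without Rspo1/tdTom+ replicate 3 (edgeR adjusted p = 0.0544), Hk1 without Rspo1/tdTom+ replicates 2 or 3 (up to 0.0875), Pfkfb3 without untreated replicate 1 or Rspo1/tdTom+ replicate 2 (up to 0.121), and Pgk1 in 3 fits (up to 0.0988, without Rspo1/tdTom+ replicate 2). Both Aldoa identifiers, Pfkl and Pygl kept their calls in 2 of the 6 fits, and Pfkfb4 and Pklr in 1. The change of Pygl was -1.31 without Rspo1/tdTom+ replicate 2 (edgeR adjusted p = 0.257). Members called numbered 6, 11 and 15 without untreated replicates 1, 2 and 3, and 6, 4 and 6 without Rspo1/tdTom+ replicates 1, 2 and 3. Of all genes 8.26%, 12.5% and 11.7% were called without these untreated replicates, and 8.22%, 6.36% and 7.52% without these Rspo1/tdTom+ replicates.

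Between Rspo1/tdTom- and untreated cells Slc16a3 and Tpi1 kept their calls in 6 of 6 fits. Eno1 lost it without Rspo1/tdTom- replicate 3 (edgeR adjusted p = 0.0572) and Pfkl without untreated replicate 3 (0.0527). Ldha, Ldhb and Pfkfb2 kept it in 4 fits, Pfkm and Pgam1 in 3, and Gapdh, Gpi1, Pck2, Pdk3, Pgk1 and the second Aldoa identifier in 2. Their largest adjusted p-values by edgeR lay between 0.0554 for Pfkfb2, without Rspo1/tdTom- replicate 1, and 0.154 for Pgk1, without untreated replicate 3, where its change was 0.30. Members called numbered 7, 18 and 8 of 34 without untreated replicates 1, 2 and 3, and 5, 19 and 5 without Rspo1/tdTom- replicates 1, 2 and 3. Of all genes 21.8%, 42.5% and 22.5% were called without these untreated replicates, and 18.5%, 37.3% and 19.1% without these Rspo1/tdTom- replicates. The counts of 7, 8, 5 and 5 members are thus near or below the background.

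The replicate numbers of the libraries stand for passages, and passage itself was tested with the groups allowed for. It was called in 13 of the 34 members and in 12.0% of all genes. Hk2 had means of 88.0, 81.6 and 31.5 CPM at passages 5, 6 and 10 (edgeR adjusted p = 0.00115), over 3 libraries each, and Pdk4 5.78, 3.51 and 1.96 CPM (edgeR adjusted p = 0.00303). Slc16a3 had 189.7, 100.2 and 101 CPM (edgeR adjusted p = 0.000901) and Pgk1 410.4, 248 and 239.9 CPM (edgeR adjusted p = 0.00669), with passage 5 the highest. Pfkm was highest at passage 10, with 24.3, 24.1 and 40.8 CPM (edgeR adjusted p = 0.00249). Without single libraries the number called was between 6 (without untreated replicate 1, Rspo1/tdTom+ replicate 1 or Rspo1/tdTom+ replicate 3) and 16 (without untreated replicate 2). Of all genes 6.25%, 6.89% and 5.29% were called in the fits with 6 members, in the same order, and 21.1% in the fit with 16. The other members called with all libraries were Slc2a1, Pfkl, Pfkp, Pgam1, Eno3, Ldha, Ldhb and Pdk1. The 3 passages are 3 cultures, and the passage number cannot be told apart from the day or batch of each culture.

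With no replicate block, the members called were 1 (Pdk3), 17 and 7 for Rspo1/tdTom+ against untreated, Rspo1/tdTom+ against Rspo1/tdTom- and Rspo1/tdTom- against untreated cells, in place of 13, 23 and 15 with the block. Of all genes 5.21%, 24.3% and 21.9% were called with no block. The third count, 7 of 34 members, is near that background, and the first is below it. The fold changes moved little: the members' medians were -0.32, -0.46 and 0.36 in place of -0.30, -0.47 and 0.41.

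Other genes of sugar metabolism were read from 7 lists, of whose 104 genes 95 were tested. Of these 95 genes 48.4% were called in Rspo1/tdTom+ against Rspo1/tdTom-, 30.5% in Rspo1/tdTom- against untreated and 27.4% in Rspo1/tdTom+ against untreated cells, against 38.9%, 35.5% and 13.2% of all genes. Of 15 hypoxia-induced genes outside glycolysis, 12 were lower and 0 higher in Rspo1/tdTom+ than in Rspo1/tdTom- cells (median log2 fold change -0.72), 9 lower and 0 higher than in untreated cells (median -0.57), and 2 were higher and 0 lower in Rspo1/tdTom- than in untreated cells (median 0.17), a smaller share (13.3%) than among all genes. Among them Ndrg1, a stress-response gene, had -1.43, edgeR adjusted p = 0.000291 against Rspo1/tdTom- and -1.16, edgeR adjusted p = 0.000811 against untreated cells. Hif1a itself had 68.3, 71.6 and 49.9 CPM in untreated, 41.3, 40.7 and 30.3 CPM in Rspo1/tdTom- and 70.8, 67.6 and 64.4 CPM in Rspo1/tdTom+ libraries, and was called lower in Rspo1/tdTom- than in untreated cells (-0.75, edgeR adjusted p = 0.000972) and higher in Rspo1/tdTom+ than in Rspo1/tdTom- cells (0.87, edgeR adjusted p = 0.000512). With the offset these were -0.078, edgeR adjusted p = 0.611 and 0.17, edgeR adjusted p = 0.237, so that neither passed the test. HIF-1 alpha is regulated largely at the protein level, which was not measured.

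Of 20 regulators of glucose metabolism 9 were higher and 2 lower in Rspo1/tdTom+ than in Rspo1/tdTom- cells, 1 higher and 9 lower in Rspo1/tdTom- than in untreated cells, and 4 higher and 3 lower in Rspo1/tdTom+ than in untreated cells. The calls are 55%, 50% and 35% of this list, where 38.9%, 35.5% and 13.2% of all genes were called. Creb1, a cAMP-responsive transcription factor gene, changed by 1.48 and -1.58 in the first pair of comparisons (edgeR adjusted p = 0.000256 and 0.000167), and with the offset by 0.38, edgeR adjusted p = 0.0312 and -0.48, edgeR adjusted p = 0.0118. Epas1, which encodes HIF-2 alpha, was lower in both Rspo1 groups than in untreated cells. It changed by -1.35 in Rspo1/tdTom- (edgeR adjusted p = 0.000288) and by -0.87 in Rspo1/tdTom+ cells (edgeR adjusted p = 0.00469). Between Rspo1/tdTom+ and Rspo1/tdTom- cells the value was 0.48, edgeR adjusted p = 0.0395 (with the offset 0.38, edgeR adjusted p = 0.0792). In Rspo1/tdTom+ against untreated cells Mlxipl, which encodes the glucose-sensing factor ChREBP, rose (1.42, edgeR adjusted p = 0.0149) and Ppara, a lipid-sensing receptor gene, fell (-1.72, edgeR adjusted p = 0.00414). Mlxipl lost this call without untreated replicate 1, Rspo1/tdTom+ replicate 1 or Rspo1/tdTom+ replicate 2 (up to 0.0899). Myc was higher in Rspo1/tdTom+ than in untreated (0.46, edgeR adjusted p = 0.0146) and Rspo1/tdTom- cells (0.55, edgeR adjusted p = 0.00291). The call of Myc against untreated cells was lost without untreated replicate 1 or any 1 of the Rspo1/tdTom+ replicates (up to 0.0918), and with no replicate block the adjusted p by edgeR was 0.53 there and 0.241 against Rspo1/tdTom- cells. With the offset Myc was lower in Rspo1/tdTom- than in untreated cells (-0.34, edgeR adjusted p = 0.03), where it was -0.083, edgeR adjusted p = 0.575 without it. Txnip, a glucose-induced inhibitor of glucose uptake, was lower in Rspo1/tdTom+ than in both other groups (-0.56, edgeR adjusted p = 0.0487 and -0.51, edgeR adjusted p = 0.033), and kept neither call in any of the fits without 1 library.

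Of 8 genes of the pentose phosphate pathway, 5 were lower and 1 higher in Rspo1/tdTom+ than in Rspo1/tdTom- cells, 3 higher and 1 lower in Rspo1/tdTom- than in untreated cells, and 0 higher and 1 lower in Rspo1/tdTom+ than in untreated cells. The calls are 75%, 50% and 12.5% of this list, where 38.9%, 35.5% and 13.2% of all genes were called. The 13 other isozymes of glycolysis and gluconeogenesis had 4 lower and 0 higher, 2 higher and 1 lower, and 2 lower and 0 higher in that order. The calls are 30.8%, 23.1% and 15.4% of this list, the first and second below the share of all genes. Among these isozymes Pcx, pyruvate carboxylase, the entry step of gluconeogenesis, was lower in Rspo1/tdTom+ than in Rspo1/tdTom- (-1.41, edgeR adjusted p = 9.19e-05) and untreated cells (-1.36, edgeR adjusted p = 2.32e-05). Of 19 further glycogen genes 6 were lower and 3 higher, 3 higher and 4 lower, and 4 lower and 0 higher, again in that order, and Gsk3b, a kinase that inactivates glycogen synthase, had -1.15 in Rspo1/tdTom- against untreated cells (edgeR adjusted p = 0.000335; with the offset -0.50, edgeR adjusted p = 0.00814). The 7 glycogen genes called in Rspo1/tdTom- against untreated cells are 36.8% of the list, near the share of all genes. The pyruvate dehydrogenase complex (8 genes) had 2 higher in the first of these comparisons and 2 lower in the second. Each is 25% of this list, below the share of all genes. Of 12 other sugar and pyruvate carriers 2 were lower, then 1 was higher, then 2 were lower and 1 higher. The calls are 16.7%, 8.33% and 25% of this list, the first and second below the share of all genes. Slc2a5, a fructose transporter, had -1.45, edgeR adjusted p = 0.0309 in Rspo1/tdTom+ against untreated cells. That call was kept in 1 of 6 fits without a library (up to 0.166 without Rspo1/tdTom+ replicate 1).

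The members that fell together were set beside the sequence before their starts. RefSeq promoters (GRCm38.p6) were found for 36 of the 37 member names, and 250 bases upstream of each start were searched on both strands for ACGTG, the core of the hypoxia response element, for CACGTG, the E-box bound by MYC and ChREBP (each of which also holds ACGTG), for CTTTGA, the core of the TCF/LEF motif, and for AGAACA, a glucocorticoid receptor site. ACGTG was present in 19 of 53 windows of the 33 tested member names (35.8%), in 12 of 36 windows of the 22 members lower in Rspo1/tdTom+ than in Rspo1/tdTom- cells (33.3%), and in 5444 of 32851 windows of all genes (16.6%). The shares for CACGTG were 11.3%, 8.33% and 6.02% in the same order, those for CTTTGA 15.1%, 16.7% and 13.8%, and those for AGAACA 18.9%, 25.0% and 16.1%. A match is only a match of letters, and no binding was measured.

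The upstream windows of 4 members are shown because they hold ACGTG, overlap no exon of GENCODE M21, and belong to members with a large fall in Rspo1/tdTom+ against Rspo1/tdTom- cells; they were chosen after these values were seen. Each runs 5′ to 3′ on the strand of the gene, and capitals mark each ACGTG and its reverse complement CACGT. The windows are those of Aldoa (chr7:126799255-126799504, minus strand, inside the gene), Pgk1 (chrX:106186850-106187099, plus strand), Ldha (chr7:46845554-46845803, plus strand, inside the gene) and Pgam1 (chr19:41911621-41911870, plus strand).
Aldoa: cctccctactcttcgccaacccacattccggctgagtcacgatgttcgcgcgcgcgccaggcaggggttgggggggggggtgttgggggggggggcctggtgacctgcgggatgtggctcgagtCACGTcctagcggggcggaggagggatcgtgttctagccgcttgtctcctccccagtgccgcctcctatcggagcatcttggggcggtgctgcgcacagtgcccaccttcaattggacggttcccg
Pgk1: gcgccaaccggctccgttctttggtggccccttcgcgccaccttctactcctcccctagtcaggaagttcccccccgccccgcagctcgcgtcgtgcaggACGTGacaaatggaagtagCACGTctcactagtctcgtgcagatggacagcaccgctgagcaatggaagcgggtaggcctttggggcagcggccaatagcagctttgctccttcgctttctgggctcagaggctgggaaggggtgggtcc
Ldha: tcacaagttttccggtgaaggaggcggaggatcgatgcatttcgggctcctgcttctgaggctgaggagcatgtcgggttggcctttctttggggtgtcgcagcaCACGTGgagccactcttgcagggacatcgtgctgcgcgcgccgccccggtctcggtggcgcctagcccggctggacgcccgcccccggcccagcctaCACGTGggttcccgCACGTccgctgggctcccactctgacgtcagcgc
Pgam1: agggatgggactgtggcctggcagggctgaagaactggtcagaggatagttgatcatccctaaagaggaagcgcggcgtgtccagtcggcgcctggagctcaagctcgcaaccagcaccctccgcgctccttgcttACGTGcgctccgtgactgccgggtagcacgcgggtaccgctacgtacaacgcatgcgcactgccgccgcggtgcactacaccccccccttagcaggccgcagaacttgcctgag

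Pgk1 holds 2 matches, the nearer beginning 131 bases before the start. Ldha holds 5 on both strands in 3 stretches of capitals, since CACGTG reads as a match on either strand. Aldoa and Pgam1 hold 1 each. The windows are rich in G and C (62.8% to 67.6%).

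The authors' deposited tables of the 3 comparisons list 31 of the 36 member genes each. At an adjusted p under 0.05 those tables call 22 members in Rspo1/tdTom+ against Rspo1/tdTom- cells, 21 lower and 1 higher, where 44.1% of their 15807 genes are called. For Rspo1/tdTom- against untreated cells the authors' deposited table calls 14 members higher and 1 lower, where 27.0% of all genes in it are called. For Rspo1/tdTom+ against untreated cells the authors' deposited table calls 1 member higher and 14 lower, where 13.9% are called. Of the calls made here, 22 of 23, 13 of 15 and 11 of 13 are called in the same direction in the authors' deposited tables. Both come from the same libraries, so the overlap is not independent evidence. Of the calls not shared, Pygl is not listed by the authors. Pdk3 in Rspo1/tdTom- against untreated cells and the second Aldoa identifier are listed but did not pass the threshold there.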

How the data were processed

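The 9 libraries were built from 100 ng of RNA of sorted organoid cells and sequenced in single-end runs of 75 bp, per the labels' protocols. For every library the authors deposited raw counts beside FPKM values, per the file headers. The authors also deposited 1 table per comparison with log2 fold changes, p-values and adjusted p-values, and with a mean signal of scaled counts and a test score per gene that were not used here, per the file headers. Trimmomatic 0.35, FastQC 0.11.2, STAR 2.5.1b, featureCounts, DESeq2 and GRCm38 are named in the submitters' processing notes. Their roles, the annotation and the strand setting are not given in the sources used here.

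The counts went into edgeR 4.0.16 (R 4.3.3). Genes were kept by filterByExpr with the groups given (a minimum count of 10 and a total of 15) and libraries scaled by TMM. One fit of all 9 libraries had group and passage as terms, and groups were compared in pairs by its quasi-likelihood F-test, adjusted by Benjamini-Hochberg across 17011 genes, with a threshold of 0.05. The standard error is the fold change divided by the square root of F. CPM are TMM-scaled. FPKM entered no test. The fit was tested on simulated counts first.

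The labels give replicates 1, 2 and 3 as passages 5, 6 and 10 of 1 organoid line. With group means subtracted, log2 CPM of libraries of the same passage correlated at 0.123 to 0.573 in 9 pairs, and those of different passages at -0.476 to 0.0826 in 18 pairs, so the replicates are paired and passage stands as a block. The chi-square per gene between replicates was at least 55.5, so all 9 libraries count as separate. Library totals limit the precision of weakly expressed genes only.

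Alternatives were no replicate block, DESeq2 size factors, upper-quartile scaling, no filter, DESeq2 1.42.0 (passage and group), the 6 libraries of a comparison alone, leaving out each library, and an offset for GC content and length (mgcv 1.9.3, GENCODE M21) with the block. The same offset without the block was chosen after seeing the data. Isozyme shares were also taken from counts divided by GENCODE M21 exon length and without each replicate. Each member was to be named, and at most 3 called genes of the other lists per comparison, by the size of the fold change, with Hif1a, Myc, Txnip and Axin2. The members and lists were chosen with earlier results of these data known. Pck1 and Gys2 were not analysed here.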

Additional observations from a re-analysis of the deposited data

How the results depend on the processing

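No member called in a comparison changed sign under any alternative run (0 opposite signs). Over single genes and alternatives, 804 values of called genes kept their side of the threshold and 288 fell to the other side, while 684 uncalled values stayed so, 40 passed the threshold and 46 had the opposite sign. With no replicate block, 886, 4141 and 3724 of all genes were called in Rspo1/tdTom+ against untreated, Rspo1/tdTom+ against Rspo1/tdTom- and Rspo1/tdTom- against untreated cells, in place of 2247, 6624 and 6039, and 1, 17 and 7 members in place of 13, 23 and 15. With the replicate block plus an offset for GC content and length, these were 2783, 4087 and 3818 genes and 14, 20 and 8 members. The offset without the block, chosen after seeing the data, gave 1060, 1413 and 1469 genes and 3, 8 and 1 members. Upper-quartile scaling moved the share of higher genes among those called in Rspo1/tdTom- against untreated cells from 43.8% to 54.2%, and the block with offset to 54.7%; against Rspo1/tdTom- cells the offset moved it from 55.3% to 45.1% in Rspo1/tdTom+ cells. DESeq2 size factors, upper-quartile scaling, no filter, DESeq2 and the 6 libraries of a comparison alone gave 9 to 17, 21 to 24 and 12 to 18 members. Of all genes 9.26% to 14.7%, 22.5% to 47.3% and 21.2% to 38.8% were called with these settings. Leaving out 1 library gave 1112 to 2178, 3674 to 7029 and 3229 to 7427 genes, and 4 to 15, 15 to 22 and 5 to 19 members. For passage it gave 916 to 3690 genes and 6 to 16 members. The cause was not tested.

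The opposite signs all belonged to uncalled log2 fold changes. In Rspo1/tdTom+ against untreated cells Pck2 had -0.00206 with no replicate block, -0.00226 with block and offset and -0.0081 with the offset alone. Leaving out 1 library, the values were -0.070 to 0.12 for Pck2, -0.19 to 0.068 for Hk2, -0.26 to 0.21 for Eno2, -0.19 to 0.11 for Pdk4, -0.54 to 0.040 for Slc2a2, -0.30 to 0.034 for Eno1, -0.35 to 0.20 for Pfkfb2 and -0.00719 to 0.20 for Hif1a. In Rspo1/tdTom+ against Rspo1/tdTom- cells Slc2a2 and Eno3 had -0.39 and 0.12 with block and offset and -0.41 and 0.16 with the offset alone. Without 1 library Hk2 had -0.000552 to 0.45, the second Aldoa identifier -0.14 to 0.41 and Pfkfb1 -0.0032 to 0.53. In Rspo1/tdTom- against untreated cells Pfkp had -0.010 with no replicate block, Hk1 and Txnip 0.00443 and 0.023 with upper-quartile scaling, and Txnip 0.00621 with no filter. Eno2, Slc2a2, Slc2a1, Slc16a1 and Pdk2 had -0.021, 0.10, -0.16, 0.37 and -0.18 with block and offset and -0.025, 0.092, -0.18, 0.37 and -0.18 with the offset alone. Without 1 library Pfkfb1 had -0.0088 to 0.54, Eno2 -0.00558 to 0.56, Pfkp -0.10 to 0.21, Txnip -0.13 to 0.12 and Slc2a1 -0.071 to 0.13. Depth limits weak genes such as Pygl and the second Aldoa identifier.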
